A study of Mus musculus with 6 samples.

Results

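Muscle glycogen genes were compared between gastrocnemius muscle, a calf muscle, of mice lacking TAK1 in skeletal muscle and of their littermates. The 9 genes encode the enzymes that build and degrade glycogen in muscle, the muscle phosphorylase kinase and its phosphatase counterpart's targeting subunits: Gyg, Gys1, Gbe1, Pygm, Phka1, Phkb, Phkg1, Ppp1r3a and Ppp1r3c. They were taken by gene symbol from 22180 genes, and for a gene with several probe sets the one with the highest mean over all 6 arrays would have been used. Each of the 9 genes had 1 probe set, and 0 of these repeated the values of another probe set. The genes were proposed with earlier results of these arrays known, so their differences are given as a description.

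The knockout group was 3 mice with a muscle-specific knockout of TAK1, studied 3 weeks after deletion, and the control group was 3 littermates with a floxed TAK1 gene. TAK1 is a kinase that passes cytokine and TGF-beta family signals on to NF-kB and MAP kinases. RNA of each mouse went on its own Affymetrix array, so n = 3 per group. The labels name no age, sex, Cre driver or agent that started the deletion, and muscle holds other cells that keep the gene. Map3k7, which encodes TAK1, had log2 levels of 8.20, 8.28 and 8.17 in knockout muscle, against 8.47, 8.32 and 8.42 in control muscle, a difference of −0.19 that did not pass the test (limma, adjusted p = 0.686). All levels are log2 probe set summaries, and a difference of 1 on this scale is a doubling.

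Muscle stores glucose as glycogen around a primer protein, glycogenin. Glycogen synthase lengthens the chains and the branching enzyme adds branches, while glycogen phosphorylase releases glucose phosphate from the chain ends during contraction. Phosphorylase kinase switches phosphorylase on in response to calcium and adrenaline, and protein phosphatase 1, held on the glycogen particle by targeting subunits, switches synthase on and phosphorylase off.

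None of the 9 genes passed an adjusted p of 0.05 over all genes (limma, 0 of 9), where 0.0947% of all genes did. The nearest were Gyg and Phka1, each below its control level on all 3 knockout arrays, and Ppp1r3c had a lower mean with groups that overlapped. Gys1 and Gbe1 had higher means in knockout muscle. At an unadjusted p of 0.05, 2 genes were higher and 3 lower, against 3.93% and 4.12% of all genes. Groups did not overlap in 3 of the 9 genes, against 13.4% of all genes. The median log2 fold change was −0.08 over the 9 genes and 0.00 over all genes, and 3 genes were higher and 6 lower. Because the genes were chosen with the results known, nothing is read from these shares.

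**Figure D1:**
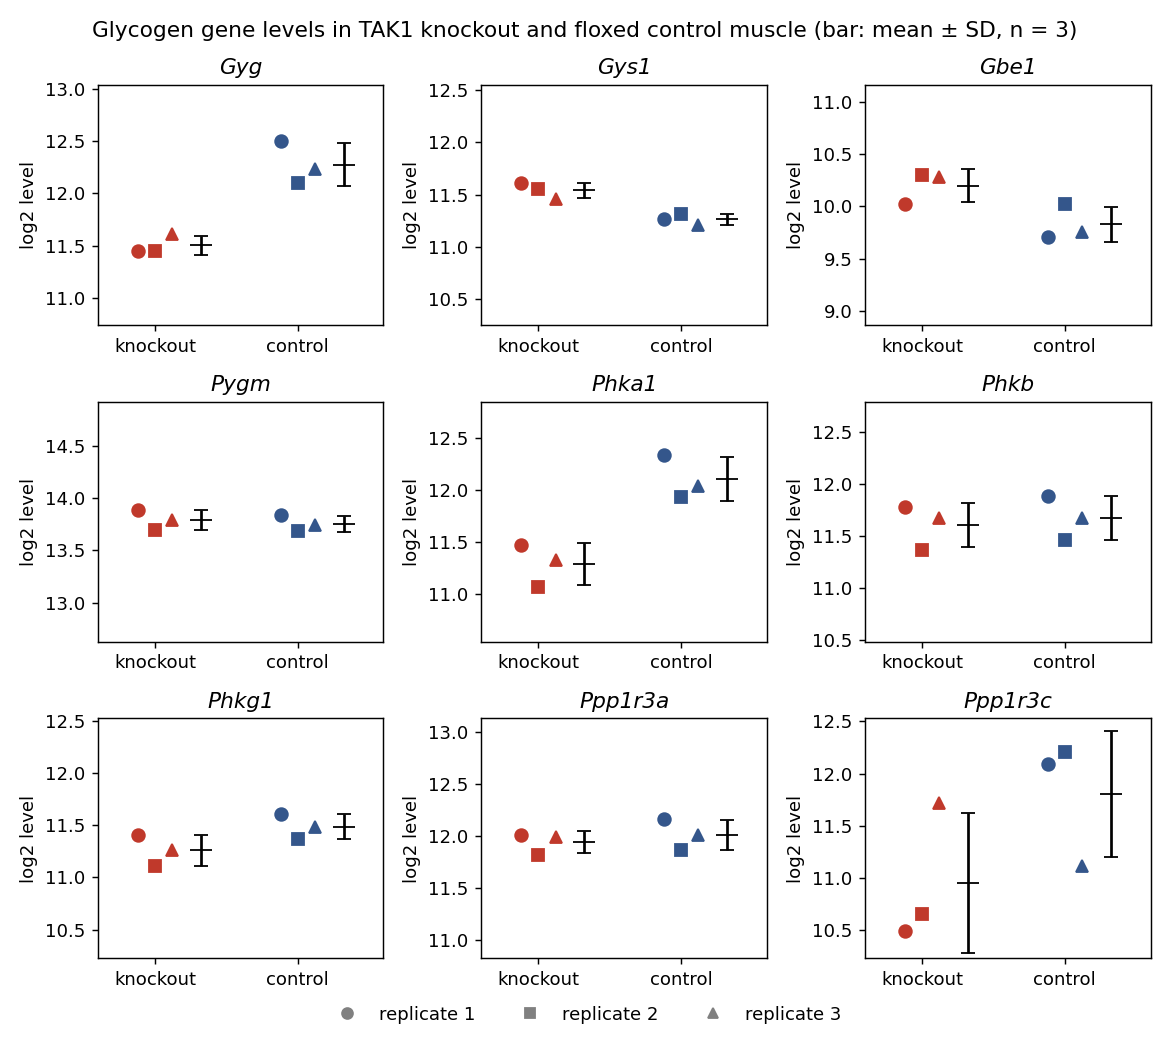
Log2 level (vertical axes, all spanning the same range) of each glycogen gene on the 3 TAK1 knockout arrays (red) and the 3 floxed control arrays (blue), with the replicate number as marker shape and mean ± SD in black. Gyg and Phka1 lie lower on every knockout array than on any control array, and Ppp1r3c is spread over 1.23 in knockout and 1.09 in control muscle.

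The stretches before the start sites of the 5 genes with an unadjusted p under 0.05 are shown, first the 3 that lay lower in knockout muscle (Gyg, Phka1, Ppp1r3c) and then the 2 that lay higher (Gys1, Gbe1). They are RefSeq sequences of GRCm38.p6, 5′ to 3′ on the gene's strand, and end before the annotated gene. Capitals mark the E-box CANNTG, the core motif read by myogenic factors and by many other basic helix-loop-helix proteins.
Gyg (chr3:20155118-20155366, minus strand, 249 bases): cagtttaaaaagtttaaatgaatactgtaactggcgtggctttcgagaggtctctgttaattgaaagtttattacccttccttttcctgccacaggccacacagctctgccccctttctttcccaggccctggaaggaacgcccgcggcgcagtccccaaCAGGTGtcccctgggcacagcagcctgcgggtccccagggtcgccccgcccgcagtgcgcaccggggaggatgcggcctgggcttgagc
Phka1 (chrX:102644302-102644496, minus strand, 195 bases): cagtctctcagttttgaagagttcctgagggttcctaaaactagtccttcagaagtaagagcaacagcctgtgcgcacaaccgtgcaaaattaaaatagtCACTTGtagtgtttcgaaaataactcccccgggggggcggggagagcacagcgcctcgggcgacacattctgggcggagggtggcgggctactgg
Ppp1r3c (chr19:36736605-36736854, minus strand, 250 bases): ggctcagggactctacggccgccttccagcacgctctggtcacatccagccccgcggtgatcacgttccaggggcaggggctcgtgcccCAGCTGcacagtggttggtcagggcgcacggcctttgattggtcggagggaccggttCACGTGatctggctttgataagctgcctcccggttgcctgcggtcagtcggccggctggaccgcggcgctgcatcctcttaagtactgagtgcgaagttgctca
Gys1 (chr7:45434589-45434838, plus strand, 250 bases): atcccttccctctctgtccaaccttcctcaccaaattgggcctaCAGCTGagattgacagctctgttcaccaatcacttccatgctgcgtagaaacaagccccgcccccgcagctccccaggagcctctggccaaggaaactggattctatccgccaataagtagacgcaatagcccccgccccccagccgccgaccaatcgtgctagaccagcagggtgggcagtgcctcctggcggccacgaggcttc
Gbe1 (chr16:70313699-70313948, plus strand, 250 bases): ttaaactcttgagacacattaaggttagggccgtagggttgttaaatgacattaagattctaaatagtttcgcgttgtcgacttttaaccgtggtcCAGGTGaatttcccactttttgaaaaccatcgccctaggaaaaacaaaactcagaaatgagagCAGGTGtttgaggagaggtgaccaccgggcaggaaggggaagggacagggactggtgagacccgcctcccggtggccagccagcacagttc

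The pattern CANNTG reads the same on both strands, though a single match need not, and its matches could overlap. Gyg and the printed part of Phka1 held 1 E-box each, CAGGTG and CACTTG. Ppp1r3c held CAGCTG and CACGTG, Gys1 held CAGCTG, and Gbe1 held CAGGTG at 2 places. In the full 250 bases before the start site, 8 of the 9 genes held an E-box (all but Phkb), against 66.2% of 32851 mouse promoter windows of that length. For Gyg and Phka1 these 250 bases run beyond the printed part into the annotated gene. The AP-1 motif TGANTCA, the cAMP response element TGACGTCA and the NF-kB consensus were each matched in 0 of the 9 windows on either strand, against 6.75%, 1.55% and 7.25% of all windows. The MEF2 consensus was matched in 1 of 9, that of Ppp1r3a, against 2.92%. These are matches of letters and show no binding.

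The genes of initiation and elongation differed in direction. Gyg encodes glycogenin, the protein that glucosylates itself to prime a glycogen particle (probe set 17404329). Its log2 level was 11.45, 11.45 and 11.61 in knockout muscle, against 12.50, 12.10 and 12.23 in control muscle. Every knockout value lay below every control value. The means were 11.51 ± 0.09 in knockout and 12.28 ± 0.20 in control muscle (SD, n = 3 each), so the knockout mean was 58.5% of the control mean on the linear scale (a ratio of geometric means). The log2 fold change was −0.77 (95% confidence interval −1.06 to −0.49), with a limma adjusted p of 0.116 over all genes. This was the smallest adjusted p of the 9 genes. With dim genes left out (those below the median of all genes), the limma adjusted p for Gyg was 0.0398, with 11090 genes tested. It was 0.0408 with an intensity trend and a robust prior in limma, and 0.503 in a model that shares no variance between genes.

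Gys1, the glycogen synthase of muscle, had log2 levels of 11.61, 11.55 and 11.46 in knockout muscle, against 11.27, 11.31 and 11.21 in control muscle. The groups did not overlap, and all 3 knockout arrays lay above the controls. The log2 fold change was 0.28 (95% confidence interval 0.06 to 0.49, limma adjusted p = 0.487), a difference of 1.21-fold that did not pass the test. Gbe1, the glycogen branching enzyme, had log2 levels of 10.02, 10.30 and 10.28 in knockout muscle, against 9.71, 10.02 and 9.76 in control muscle. Knockout 1 and control 2 met at 10.02, while the other 2 knockout arrays lay above all controls. Its log2 fold change was 0.37 (95% confidence interval 0.08 to 0.66, limma adjusted p = 0.484).

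Set against each gene's own control mean, Gyg lay below Gys1 by 1.18, 1.12 and 0.86 on the 3 knockout arrays. The same difference ran from −0.22 to 0.21 on the control arrays. Relative to Gbe1, Gyg lay lower by 1.01, 1.30 and 1.12 on the knockout arrays, and the control arrays ran from −0.36 to 0.35. Gyg thus differed from both genes in the same direction on each knockout array. These pairs were chosen after the values were seen and have no test.

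The gene of the phosphorylase showed no such difference. Pygm, the muscle glycogen phosphorylase whose loss in humans causes McArdle disease, had log2 levels of 13.89, 13.70 and 13.79 in knockout muscle, against 13.84, 13.69 and 13.74 in control muscle. Its log2 fold change was 0.03 (95% confidence interval −0.19 to 0.26, limma adjusted p = 0.968). These levels lie close to the highest value on any array (14.31 to 14.34), where differences can be compressed.

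Phosphorylase kinase joins a catalytic gamma subunit to regulatory subunits, alpha and beta among them. Phka1, the muscle alpha subunit (probe set 17543691), had log2 levels of 11.47, 11.07 and 11.33 in knockout muscle, against 12.34, 11.93 and 12.04 in control muscle. The groups did not overlap, and knockout muscle was the lower, with means of 11.29 ± 0.20 in knockout and 12.11 ± 0.21 in control muscle (SD, n = 3 each). The knockout mean was 56.8% of the control mean on the linear scale, a log2 fold change of −0.82 (95% confidence interval −1.15 to −0.49) that did not pass the test (limma, adjusted p = 0.136). Without dim genes its limma adjusted p was 0.0535 or 0.0578, depending on the level at which genes counted as dim.

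The partner subunits differed less. Phkb, the beta subunit, had log2 levels of 11.78, 11.37 and 11.67 in knockout muscle, against 11.88, 11.46 and 11.67 in control muscle, and the groups overlapped (log2 fold change −0.07, 95% confidence interval −0.40 to 0.27, limma adjusted p = 0.956). Phkg1, the catalytic subunit of muscle, had log2 levels of 11.41, 11.11 and 11.26 in knockout muscle, against 11.61, 11.37 and 11.48 in control muscle. Its groups overlapped only through knockout 1, which lay above control 2 (log2 fold change −0.23, 95% confidence interval −0.49 to 0.03, limma adjusted p = 0.683).

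**Figure D2:**
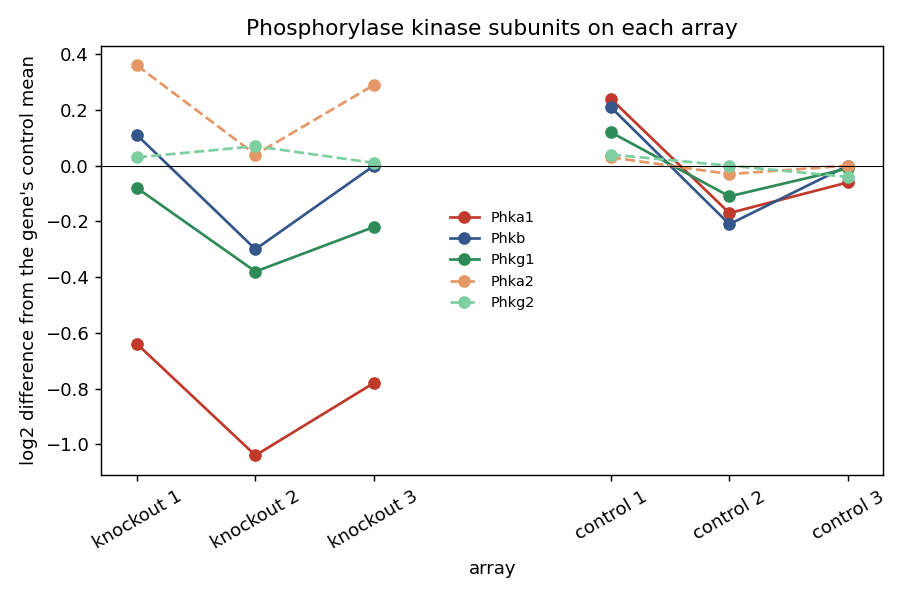
Log2 difference of each phosphorylase kinase subunit from its own control mean (vertical axis) on the 3 knockout arrays (left) and the 3 control arrays (right). Lines join the values of a gene, and replicate numbers carry no order. Phka1 lies 0.73 to 0.77 below Phkb on the knockout arrays, while both follow the same array-to-array variation.

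The 3 muscle subunits varied together from array to array, so the gap between them was steadier than the level of any. Relative to the control means, Phka1 lay below Phkb by 0.75, 0.73 and 0.77 on the knockout arrays, and the same difference was 0.03, 0.04 and −0.07 on the control arrays. Its SD was 0.02 in knockout and 0.06 in control muscle, while that of Phka1 alone was 0.20 in knockout and 0.21 in control muscle. Phka1 also lay below Phkg1, by 0.56, 0.66 and 0.55 on the knockout arrays, with control values from −0.06 to 0.11. The alpha subunit of liver, Phka2, had log2 levels of 8.06, 7.74 and 7.99 in knockout muscle, against 7.73, 7.67 and 7.70 in control muscle. Each knockout array lay above the controls, knockout 2 barely so (log2 fold change 0.23, 95% confidence interval −0.02 to 0.48, limma adjusted p = 0.655). Phkg2, the gamma subunit of liver and testis, had a log2 fold change of 0.04 (limma adjusted p = 0.960). The subunit pairs were chosen after their values were seen and have no test.

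The targeting subunits of protein phosphatase 1 differed from each other in their spread. Ppp1r3a, the large glycogen-targeting subunit of striated muscle, had log2 levels of 12.01, 11.82 and 11.99 in knockout muscle, against 12.16, 11.87 and 12.01 in control muscle. The groups overlapped, with a log2 fold change of −0.08 (95% confidence interval −0.33 to 0.18, limma adjusted p = 0.925). Ppp1r3c, also called protein targeting to glycogen, had log2 levels of 10.49, 10.65 and 11.72 in knockout muscle, against 12.09, 12.21 and 11.11 in control muscle. Knockout 3 lay above control 3, so the groups overlapped, while the other 4 arrays were well apart. The means were 10.95 ± 0.67 in knockout and 11.80 ± 0.60 in control muscle (SD, n = 3 each). The log2 fold change of −0.85 was the largest in size of the 9 genes and had the widest interval (95% confidence interval −1.68 to −0.01, limma adjusted p = 0.617). Leaving out single arrays moved it between −1.23 and −0.62, and the limma adjusted p stayed between 0.373 and 0.875.

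The genes whose pattern over the 6 arrays was most like that of Ppp1r3c were sought among 11835 genes, by the root mean square difference of their deviations from the gene mean. They were Il6ra, the interleukin 6 receptor (0.28), Foxo1, a forkhead transcription factor (0.31), and Lcn2, a secreted protein of the lipocalin family (0.34, all in log2 units). Foxo1 had log2 levels of 8.89, 8.94 and 9.78 in knockout muscle, against 9.69, 9.80 and 8.98 in control muscle. As for Ppp1r3c, knockout 3 was the highest knockout array and control 3 the lowest control array. None of the 3 differed between the groups by the limma test (0 of 3, adjusted p of 0.859 to 0.889). The 3 genes were picked for their likeness to Ppp1r3c on these same arrays. Their shared array order follows from that choice, and nothing is read from it or from the count.

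Array-to-array variation was shared by 5 of the 9 genes. Pygm, Phka1, Phkb, Phkg1 and Ppp1r3a were each highest in replicate 1 and lowest in replicate 2 of both groups. Whether the numbers pair the mice is not known. Gyg was lowest in replicate 2 of both groups, in knockout muscle barely so, and highest in knockout 3 and control 1. Gys1, Gbe1 and Ppp1r3c followed other orders. How many of all genes share the order of the 5 was not counted. Summed linear levels of 10 slow-fibre markers were 6455, 9463 and 9597 on the knockout arrays, against 6345, 11094 and 5528 on the control arrays. Replicate 1 was lower than replicate 2 in both groups, while replicate 3 was highest in knockout and lowest in control muscle. The part of fibre type in the shared variation was not tested.

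**Figure D3:**
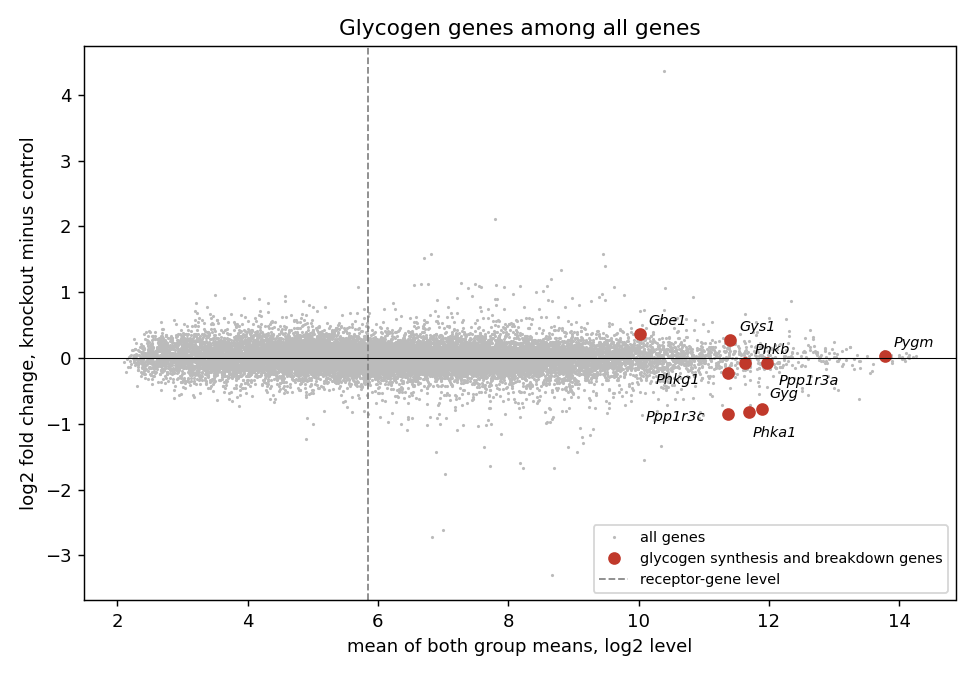
Log2 fold change, knockout minus control, of all 22180 genes (grey) against their mean log2 level, with the 9 glycogen genes in red and the level of olfactory and vomeronasal receptor genes as a dashed line. All 9 lie far to the right of that line, at higher mean levels. Gyg, Phka1 and Ppp1r3c lie at −0.77, −0.82 and −0.85, and the other 6 between −0.23 and 0.37.

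All 7 skeletal muscle markers lay above the level of 5.85 taken as background, which is the 95th percentile of 1394 olfactory and vomeronasal receptor genes, and so did all 9 glycogen genes. Of 11 fast-fibre markers 0 passed the limma test and 8 were lower, and at an unadjusted p of 0.05, 2 were lower (Myh1 and Mylpf) and 0 higher, against 4.12% and 3.93% of all genes. Their summed linear level was 132344 to 137838 on knockout arrays and 142002 to 144665 on control arrays, so the sum lay lower in knockout muscle. The median log2 fold change of the 11 markers was −0.01, in a range from −0.49 to 0.05, and 3 were higher. The 10 slow-fibre markers, with 0 called, ranged from 6455 to 9597 on knockout and from 5528 to 11094 on control arrays. Of 8 tendon markers 0 passed the limma test and 8 were lower, 5 of them at an unadjusted p of 0.05, against 4.12% of all genes. Among these 5, Mkx lay below background. Groups did not overlap in 1 of the 8, Fmod, against 13.4% of all genes. The tendon markers had a median difference of −0.80 (log2), the lowest of the 9 marker lists. They ranged in sum from 1227 to 2647 on knockout and from 2328 to 3672 on control arrays. The 6 measured adipocyte markers ranged in sum from 3028 to 3881 on knockout and from 2356 to 4199 on control arrays. Of the 4 liver markers, Alb, Ttr and Fga lay below background. The part of these cells and fibres in the differences of glycogen genes was not tested, and in whole muscle fewer cells of a type and less RNA per cell cannot be told apart.

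Other genes of the pathway were listed by role. Of 52 listed genes 45 were measured, and 41 of these lay above background. None passed over all genes (limma, 0 of 45, against 0.0947% of all genes). At an unadjusted p of 0.05, 3 were higher and 3 lower, against 3.93% and 4.12% of all genes. In all, 20 were higher and 25 lower. Their median log2 fold change was −0.01, in a range from −0.52 to 0.40. Groups did not overlap in 8 of the 45, against 13.4% of all genes. Pgm1 and Gsk3a shared a probe set with another gene and were not used, and the other unmeasured genes were not analysed here.

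**Figure D4:**
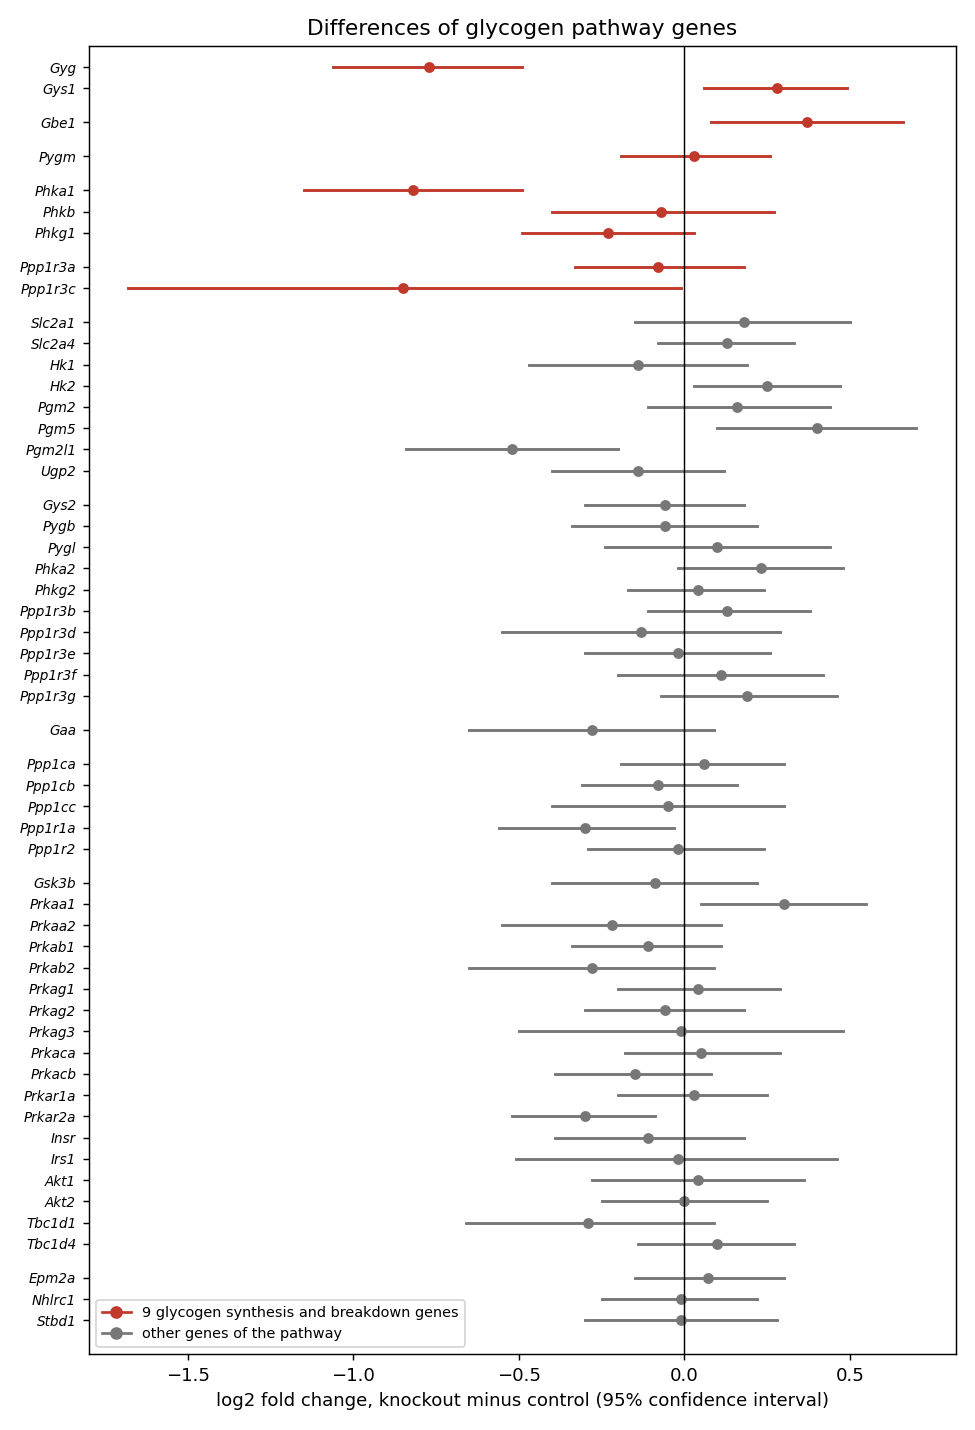
Log2 fold change, knockout minus control, with 95% confidence interval (horizontal axis) for the 9 glycogen genes in red and 45 other genes of the pathway in grey, grouped by role. The grey points run from −0.52 for Pgm2l1 to 0.40 for Pgm5, and the 3 lowest red points lie below all of them.

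Among genes of glucose uptake and UDP-glucose supply, 5 were higher and 3 lower. Pgm2l1, which makes glucose bisphosphate, the cofactor of phosphoglucomutase, had log2 levels of 7.99, 7.67 and 7.77 in knockout muscle, against 8.53, 8.08 and 8.39 in control muscle, and the groups did not overlap (log2 fold change −0.52, limma adjusted p = 0.344). Pgm5, a relative of phosphoglucomutase found at muscle adhesion sites, had 8.31, 8.46 and 8.05 in knockout muscle, against 7.71, 8.01 and 7.90 in control muscle (log2 fold change 0.40, limma adjusted p = 0.468). Slc2a4, the insulin-responsive glucose transporter, differed by 0.13 (limma adjusted p = 0.798), and Ugp2, which makes the UDP-glucose that synthase uses, by −0.14 (limma adjusted p = 0.829).

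Isoforms better known from other tissues gave small differences, from −0.13 to 0.23 over 10 genes. Only 6 of these lay above background, so the small differences of the others are uncertain. The brain phosphorylase Pygb differed by −0.06 (limma adjusted p = 0.951). Ppp1r3g, another phosphatase targeting subunit, differed by 0.19 but lay below background in both groups, so its level is uncertain. Gaa, the lysosomal enzyme that degrades glycogen, had log2 levels of 10.37, 10.18 and 10.41 in knockout muscle, against 10.97, 10.37 and 10.47 in control muscle (log2 fold change −0.28, limma adjusted p = 0.736).

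Of 5 phosphatase 1 catalytic subunits and inhibitors, Ppp1r1a, an inhibitor that protein kinase A activates, lay lowest at −0.30 with groups that did not overlap (limma adjusted p = 0.561). The catalytic subunit Ppp1cb differed by −0.08 (limma adjusted p = 0.917). Among 18 upstream kinases and receptors, Prkar2a, a regulatory subunit of protein kinase A, had log2 levels of 10.23, 10.25 and 10.20 in knockout muscle, against 10.47, 10.48 and 10.63 in control muscle (log2 fold change −0.30, limma adjusted p = 0.444). Prkaa1, a catalytic subunit of AMP-activated kinase, had 9.32, 9.20 and 9.12 in knockout muscle, against 8.92, 8.77 and 9.04 in control muscle (log2 fold change 0.30, limma adjusted p = 0.534). Neither gene passed the test, though both had groups that did not overlap. Gsk3b, a kinase that inactivates glycogen synthase, differed by −0.09 and Prkag3, a gamma subunit of AMP-activated kinase in fast muscle, by −0.01 (limma adjusted p = 0.928 and 0.997). Epm2a, the glycogen phosphatase laforin, differed by 0.07 and its partner Nhlrc1, the ubiquitin ligase malin, by −0.01 (limma adjusted p = 0.912 and 0.991).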

How the data were processed

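RNA of 6 muscles was measured on Affymetrix arrays, 1 per mouse. The deposited values are log2 probe set summaries. RMA, oligo and limma are the tools named per the submitters' processing notes, without versions or roles. RMA corrects background, aligns the arrays' distributions and compresses differences of dim transcripts. Array medians were 5.78 to 5.84, and scan batches were not analysed here. Precision is limited by the small number of arrays.

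Of 41345 probe sets, 23521 carry 1 gene symbol in the platform annotation of GEO (possibly outdated), and the highest-mean probe set stood for a gene, giving 22180 genes. Symbols of all 9 genes matched RefSeq (GRCm38.p6) by Entrez identifier. Knockout and control were compared with limma 3.58.1 (R 4.3.3; lmFit, eBayes, two-sided, Benjamini-Hochberg over all genes, threshold 0.05), a procedure tested on simulated data. No filter on dim genes was used. The genes, pathway lists, markers and motifs were chosen with earlier results of these data known. The text names all 9 genes, Map3k7, the 2 pathway genes of each role with the smallest unadjusted p and the set genes measured here (Ugp2, Gsk3b, Pygb, Phkg2, Prkag3 and Slc2a4), and the 3 genes most like the member with the largest difference. Markers, Pgm1 and Gsk3a were named as list facts. Some listed genes are not reported here. Whether replicate numbers pair the mice is not known, and they were not used as pairs in the main comparison. Alternatives were other normalizations, filters, variance models and arrays left out. Plots used matplotlib 3.10.9 in Python 3.11.15.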

Additional observations from a re-analysis of the deposited data

How the results depend on the processing

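Gyg passed the limma test in 3 alternatives, so 1 of the 9 glycogen genes was called without genes below the median (adjusted p = 0.0398), without genes below the receptor level (0.0433) and under eBayes with a robust prior and intensity trend (0.0408). In the other 12 alternatives 0 of 9 passed, and 0 of the other pathway genes tested passed in any of the 15 (45 tested, or 40 and 41 under the 2 filters on dim genes). Over all genes the count was 53, 45 and 36 in those 3 settings, 0 without moderation, 6 with every probe set tested and 2 to 11 with 1 array left out, against 21. The first 2 settings test fewer genes; the cause of the other changes was not tested. With the replicate number as a block, 17 genes passed and 0 of the 9, with Phka1 at an adjusted p of 0.103. With each array taken as deviations from its group mean, same-numbered mice correlated at 0.079, 0.212 and −0.072 across genes. Since the deviations come from groups of 3, these values cannot show whether the numbers pair the mice. The numbers were not taken as pairs.

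Of 135 values of the 9 genes under alternatives, 131 kept their direction. Under quantile normalization Pygm turned to −0.001 and Prkag3 to 0. With 1 array left out, Pygm ran from −0.015 to 0.08, Phkb from −0.17 to 0.053, Pygb from −0.14 to 0.039, Gsk3b from −0.17 to 0.025, Prkag3 from −0.23 to 0.12 and Nhlrc1 from −0.061 to 0.056. Gyg ran from −0.86 to −0.66 and Phka1 from −0.91 to −0.70, with 0 of these fits passing for either gene.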
